A study of Arabidopsis thaliana with 15 samples.

Results

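The genes described here are 109 of the 33601 genes counted in rosettes of Arabidopsis thaliana, the thale cress. They were chosen by their levels in these libraries. Each had a log2(mean CPM + 1) at least 0.8 above wild type in the ref4-3 cdk8-1 double mutant, and each stayed within 0.5 of wild type in both of its parents, ref4-3 and cdk8-1. CPM is counts per 1000000 counts assigned to genes, and the mean is over 3 libraries. The rise in the double mutant and the near-wild-type levels in its parents are therefore what selected the genes, and they are given as a description. All 109 are in the TAIR10.1 annotation, where 103 are protein-coding, 1 is a miRNA precursor and 1 is a pseudogene, the others being noncoding RNA genes.

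Libraries were made from 20-day-old plants in the Columbia-0 background, 3 for each of wild type (WT), ref4-1, ref4-3, cdk8-1 and ref4-3 cdk8-1. Each library pooled 5 whole rosettes, so that fewer cells of a kind and less RNA per cell cannot be told apart. The plants carried the mutations throughout, and the labels give no drug treatment. All genotypes but ref4-1 entered the choice of genes. The labels do not say that replicate libraries came from separate sowings, so p-values measure the spread between these pools.

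Mediator is the large protein complex that links DNA-bound transcription factors to RNA polymerase II. MED5B, also called REF4, is a subunit of its tail, the side that contacts transcription factors, and ref4-1 and ref4-3 are semi-dominant missense alleles known for their low phenylpropanoid content. CDK8 is the cyclin-dependent kinase of the Mediator kinase module, a detachable part that can restrain or promote transcription. The double mutant addresses which transcripts depend on CDK8 in a plant with an altered MED5B.

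The targeted genes were examined first. CDK8 was at 18.4 ± 1.34 CPM (SD, n = 3) in WT and 23.5 ± 1.23 in ref4-3, against 4.30 ± 0.155 in cdk8-1 and 5.57 ± 1.13 in the double mutant. MED5B was at 23.5 ± 3.59 CPM in WT and 23.8 ± 0.529 in the double mutant, a level that checks nothing, because the ref4 alleles change the protein. Libraries held 9573567 to 16803904 counts, so that 1 count was worth 0.0595 to 0.104 CPM. ref4-1 replicate 3 stood apart. Its counts differed from those of replicates 1 and 2 by 14.7 and 11.5 (chi-square over degrees of freedom, where sampling noise alone gives about 1), and the other replicate pairs differed by 2.67 to 6.19. It had the fewest counts and the most non-unique reads relative to its gene counts, 6.62% against 2.37 to 5.88%. Tissue markers moved with genotype. The 13 leaf photosynthesis genes, all detected, summed to 55071 to 56709 CPM in WT, 37993 to 40540 in ref4-3, 65556 to 69829 in cdk8-1 and 49957 to 50679 in the double mutant. The 13 xylem genes summed to 129 to 143 CPM in WT, 93.0 to 130 in ref4-3, 180 to 195 in cdk8-1 and 154 to 202 in the double mutant, with XCP1 going from 21.9 CPM in WT to 51.0 in cdk8-1 and VND6 from 2.19 to 1.66. The 7 phloem genes summed to 400 to 435 CPM in WT, 513 to 572 in ref4-3, 301 to 315 in cdk8-1 and 413 to 468 in the double mutant. SUC2 (144, 233, 120 and 227 CPM in WT, ref4-3, cdk8-1 and the double mutant) and PP2-A1 (148, 205, 75.2 and 130) carried that sum, while SEOR1 (47.0, 36.0, 38.9 and 27.6) and SEOR2 (45.8, 35.3, 39.5 and 30.4) had lower means than WT in each. The 11 root genes, 4 of them at 0 in every library, summed to 200 to 257 CPM in WT, 186 to 200 in ref4-3, 340 to 409 in cdk8-1 and 209 to 253 in the double mutant. Most of that sum was PYK10, at 193, 148, 326 and 188 CPM, while SCR was at 22.8, 34.4, 26.0 and 30.1. The 9 guard cell genes summed to 120 to 122 CPM in WT, 118 to 132 in ref4-1, 139 to 140 in ref4-3, 140 to 147 in cdk8-1 and 148 to 152 in the double mutant. As a sum they were above WT in both parents and highest in the double mutant, as the chosen genes mostly were. SCRM (44.2, 51.7, 51.7 and 61.0 CPM) and KAT1 (22.9, 35.4, 38.2 and 35.3) made up most of that rise. Gene by gene the list did not have that order. Its median log2 difference from WT (edgeR) was 0.10 in ref4-3, 0.01 in cdk8-1 and -0.09 in the double mutant. In the double mutant 3 of the 9 were called higher and 1 lower (21.0% and 21.6% of all genes). The sums moved in ref4-1 too. There the photosynthesis genes summed to 40792 to 51460 CPM and the xylem genes to 91.5 to 111. The phloem genes summed to 452 to 504 CPM in ref4-1 and the root genes to 162 to 227. No gene on these marker lists was among the 109 genes. The lists include none for the vascular cambium, to which WOX4 of the 109 belongs. The part of tissue composition in the levels of the 109 genes was not tested.

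Across the 109 genes the double mutant stood 0.80 to 3.93 above WT on the log2(mean CPM + 1) scale, with a median of 0.95, and 41 genes reached 1 or more. The single mutants were not level with WT. ref4-3 was above WT in 105 of the 109 genes (median 0.33) and cdk8-1 in 97 (median 0.31), while the rule held both under 0.5. Of all genes tested, 71.1% were above WT in ref4-3, 52.9% in cdk8-1 and 39.0% in both, against 94 of the 109 in both. Over these 18935 genes, all above 1 CPM in at least 3 libraries, the medians were 0.17 in ref4-3, 0.01 in cdk8-1 and 0.12 in the double mutant. Part of the ref4-3 value is therefore shared by genes at large on this scale. With library sizes scaled by TMM, which sets most genes level between libraries, the medians of the 109 genes were 0.22 in ref4-3, 0.30 in cdk8-1 and 0.85 in the double mutant, with 95 genes above WT in each single mutant. In the edgeR fit, which also uses TMM, 52.7% of all genes were above WT in ref4-3 and 50.5% in cdk8-1. Of the 104 chosen genes tested there, 90 and 92 were. Both single mutants lay within 0.25 of WT in 15 genes. "Raised only in the double mutant" thus names a threshold: in the libraries that chose them, most of these genes leaned upwards in both parents. All these differences share the WT libraries that the rule used, so nothing is read from the contrast with all genes.

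**Figure D1:**
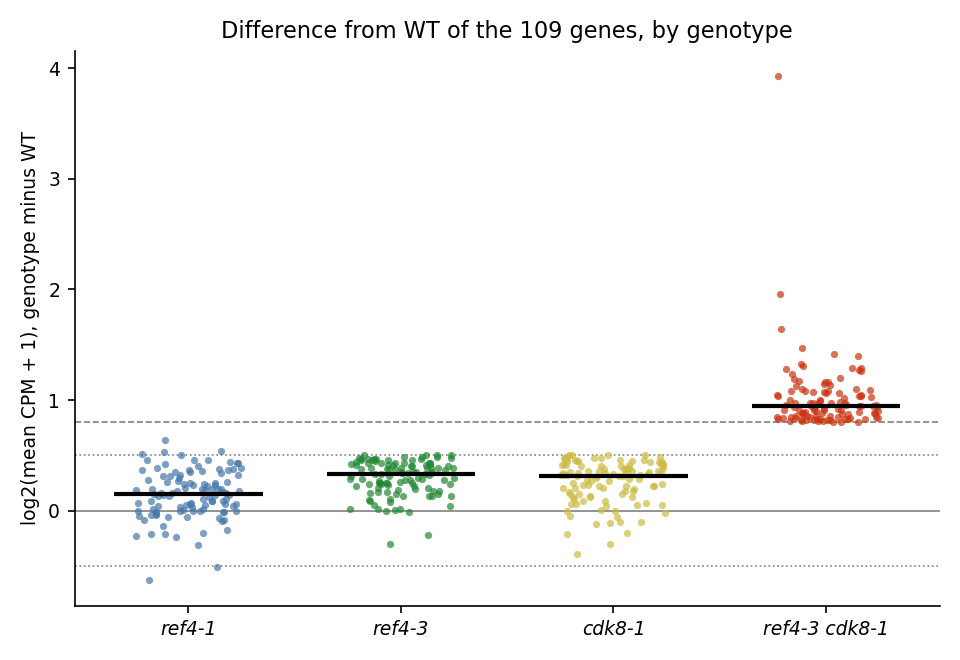
Each point is 1 of the 109 genes, plotted as log2(mean CPM + 1) of a genotype minus WT (y axis) for the 4 mutant genotypes (x axis); black bars are medians, the dashed line is at 0.8 and the dotted lines are at 0.5 and -0.5. Medians are 0.15 for ref4-1, 0.33 for ref4-3, 0.31 for cdk8-1 and 0.95 for the double mutant, and most single-mutant points lie above 0.

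The double-mutant libraries lay close together. The lowest double-mutant library was above every WT, ref4-3 and cdk8-1 library in 106 of the 109 genes. Of all genes tested 8.89% had that order, and nothing is read from the contrast because those libraries chose the genes. The exceptions were AT2G07042, a noncoding RNA, AT1G77885, and ATSTE14B, an isoprenylcysteine methyltransferase that modifies prenylated proteins. Over the 104 genes that passed the filter on low counts, the median coefficient of variation of the double-mutant libraries was 7.31%. The other 5 genes (GASA3, IPT7, AT1G24580, AT3G24790 and AT5G53710) did not pass it. With no filter beyond 1 count, all 109 were tested.

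The choice was repeated with 1 replicate number left out of all genotypes and then read in the libraries left out. It gave 110, 113 and 147 genes without replicates 1, 2 and 3, of which 77, 72 and 82 were among the 109. In the unused libraries the median difference between the double mutant and WT was 0.96, 0.96 and 0.83, against 0.12, 0.15 and 0.08 over all genes tested. The unused double-mutant library was above the unused WT library in 109, 113 and 147 of these genes, where 64.4, 65.6 and 60.4% of all genes tested had that order. It reached 0.8 in 82, 73 and 81 of them, against 5.04, 6.27 and 5.05% of all genes tested. For each of these re-chosen sets, which are not the 109, the rise was thus present in the libraries left out of its choice. Which genes cleared the threshold varied. The labels do not say that the libraries left out came from separate sowings.

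At the 0.8 threshold, the genes just inside were BOI (0.801), a RING ubiquitin ligase, FDH (0.801) and AT1G77885 (0.802). Just outside were AT4G36010 (0.798), AT5G66080 (0.798) and PAP22 (0.795). At the ceiling for ref4-3, AT2G02060 was inside at 0.4998 and CID9 outside at 0.5057. At the ceiling for cdk8-1, AT5G37360 was inside at 0.4990 and ABCB28 outside at 0.5001. Of the 873 genes at least 0.8 above WT in the double mutant, the 109 made up 12.5%. Among the 873, ref4-3 was 0.5 or more above WT in 638, and cdk8-1 in 279. The mirrored choice, for genes lower in the double mutant, gave 51 genes.

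The largest rise was that of a noncoding RNA. AT1G67105 (chromosome 1, 25057479 to 25058264, plus strand, TAIR10.1) was read at 0.162, 0.317 and 0.405 CPM in WT, 0.281, 0.238 and 0.522 in ref4-1, 0.521, 0.340 and 0.165 in ref4-3 and 0.0805, 0.971 and 0.169 in cdk8-1. The double-mutant libraries had 21.9, 18.9 and 15.4 CPM, from 300, 285 and 207 counts. Every library of the other genotypes was below 1 CPM, and the double-mutant mean was 63.7 times the WT mean. The flanking genes had few counts in all genotypes. LBD40, 2614 bases upstream, was at 0.0962 ± 0.0459 CPM in the double mutant and had no count in WT. CYP735A2, a cytokinin hydroxylase gene 3408 bases downstream on the other strand, was at 0.295 ± 0.203 CPM in WT and 0.723 ± 0.407 in the double mutant.

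The 250 bases upstream of 4 genes are shown, because they belong to the gene with the largest rise, to both genes with the most reads, and to the transcription factor gene DREB2B, whose window holds both a G-box and an evening element. They were read from RefSeq's TAIR10.1, 5′ to 3′ on the gene's strand, up to the base before the annotated start. Capitals mark the evening element AAATATCT, the G-box CACGTG, the abscisic acid response core ACGTG, the drought response core CCGAC, and TATCCA, each on either strand. The ACGTG core lies inside the G-box.
AT1G67105 (chr1:25057229-25057478, plus strand): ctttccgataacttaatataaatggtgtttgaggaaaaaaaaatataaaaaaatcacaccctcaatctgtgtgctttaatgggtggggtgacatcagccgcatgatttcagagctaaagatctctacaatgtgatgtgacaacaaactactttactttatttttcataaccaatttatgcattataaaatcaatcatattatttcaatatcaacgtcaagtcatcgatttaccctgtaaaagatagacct
DRM2 (chr2:14310609-14310858, minus strand): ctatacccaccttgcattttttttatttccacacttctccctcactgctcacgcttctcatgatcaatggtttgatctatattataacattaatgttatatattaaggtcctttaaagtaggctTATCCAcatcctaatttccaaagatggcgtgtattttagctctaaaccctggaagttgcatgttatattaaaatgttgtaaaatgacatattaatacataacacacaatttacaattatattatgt
COR413-PM1 (chr2:6949601-6949850, plus strand): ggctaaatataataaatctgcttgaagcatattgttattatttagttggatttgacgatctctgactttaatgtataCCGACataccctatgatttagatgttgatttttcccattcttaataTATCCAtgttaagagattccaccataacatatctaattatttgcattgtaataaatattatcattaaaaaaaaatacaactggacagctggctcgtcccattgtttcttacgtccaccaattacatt
DREB2B (chr3:3455105-3455354, plus strand): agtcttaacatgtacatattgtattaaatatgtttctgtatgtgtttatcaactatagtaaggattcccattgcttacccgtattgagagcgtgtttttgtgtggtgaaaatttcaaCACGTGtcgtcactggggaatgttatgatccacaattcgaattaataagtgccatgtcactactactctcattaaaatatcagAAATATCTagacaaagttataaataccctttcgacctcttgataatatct

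The window of AT1G67105 holds none of these letters and that of DRM2 holds TATCCA. The evening element, which clock proteins bind, was in 8 of the 109 windows (7.34%) and in 5.06% of the windows of 18859 tested genes. The G-box was in 13 (11.9%, against 7.47%), and ACGTG in 31 (28.4%, against 23.5%). CCGAC was in 18 (16.5%, against 13.1%) and TATCCA in 16 (14.7%, against 14.2%). The site II element TGGGCT, frequent upstream of housekeeping genes, was in 4 (3.67%, against 14.7%). The I-box GATAAG was in 13 (11.9%, against 12.4%), and the auxin response element TGTCTC in 13 (11.9%, against 10.5%). These are counts of letters on both strands, with no test.

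The other noncoding genes had smaller differences. AT2G33051 lies antisense to RLP26, a receptor-like protein gene, and was at 6.78, 9.78, 8.72 and 14.2 CPM in WT, ref4-3, cdk8-1 and the double mutant, while RLP26 was at 22.6 CPM in WT and 9.32 in the double mutant. They share 2671 bases, and since the strand setting of the counting is not given in the sources used here, their reads may not be fully separated. MIR841a, a miRNA precursor gene, was at 1.10, 1.75, 1.93 and 3.12 CPM in the same order. Of the 109 genes, 22 overlap a gene on the opposite strand and 6 a gene on the same strand.

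DRM2 and DYL1 encode the dormancy and auxin associated family, small proteins whose transcripts are known from dormant buds and resting tissue. DRM2 (chromosome 2, 14308754 to 14310608) had 181, 193 and 205 CPM in WT, 151, 184 and 230 in ref4-1, 222, 197 and 256 in ref4-3, 272, 235 and 212 in cdk8-1 and 616, 637 and 552 in the double mutant. WT and cdk8-1 did not overlap, ref4-1 overlapped WT, ref4-3 and cdk8-1, and every double-mutant library was above all others. DYL1 had 44.0 to 47.5 CPM in WT, 47.2 to 51.4 in ref4-3, 44.1 to 59.9 in cdk8-1 and 81.8 to 92.4 in the double mutant. The differences in the double mutant exceeded the sum of the single-mutant differences by 1.10 for DRM2 and 0.60 for DYL1 (log2).

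Carbon and nitrogen metabolism gave 10 genes. TPS10, a class II trehalose phosphate synthase of the family tied to sugar signalling, had 35.9, 30.7 and 31.7 CPM in WT, 37.1, 33.6 and 31.8 in ref4-1, 45.0, 46.9 and 43.1 in ref4-3, 44.5, 41.9 and 47.8 in cdk8-1 and 100, 92.4 and 85.3 in the double mutant. Every library of both parents was above every WT library, ref4-1 overlapped WT, and the double mutant was above all. TPS5, of the same class, was at 34.8 ± 1.13 CPM in WT and 61.6 ± 3.80 in the double mutant, 0.06 above the sum of the single differences (log2). The family was drawn up as a list after TPS10 and TPS5 were seen. Beside these 2, 6 of its genes were tested (edgeR). In the double mutant 3 were higher than in WT (TPS1, TPS6 and TPS11) and 2 lower (TPS7 and TPS8), where 21.0% of all genes were called higher and 21.6% lower. In cdk8-1 3 of the 6 were higher and 0 lower (8.06% and 11.8% of all genes), and in ref4-3 0 were higher and 2 lower (20.3% and 19.6%).

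AT1G08890, a major facilitator superfamily protein, had 21.4 to 25.2 CPM in WT, 22.4 to 26.4 in cdk8-1, 27.9 to 33.0 in ref4-3 and 56.1 to 62.2 in the double mutant, whose mean was 2.59 times that of WT. OASA2, an isoform of the enzyme family that makes cysteine, was at 4.75 ± 0.558 CPM in WT and 13.1 ± 3.12 in the double mutant. AAH, which breaks down allantoate and so releases nitrogen, was at 6.33, 6.92, 8.36 and 13.3 CPM in WT, ref4-3, cdk8-1 and the double mutant. ARD4, an acireductone dioxygenase family gene of methionine salvage, was at 43.9 ± 1.55 CPM in WT and 79.4 ± 1.41 in the double mutant. All 4 exceeded the sum of the single-mutant differences, by 0.90 for AT1G08890, 0.77 for OASA2, 0.50 for AAH and 0.45 for ARD4 (log2).

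FDH, the mitochondrial formate dehydrogenase, stood on opposite sides of WT in the parents of the double mutant. It had 142, 123 and 125 CPM in WT, 133, 132 and 121 in ref4-1, 158, 169 and 157 in ref4-3, 120, 112 and 105 in cdk8-1 and 239, 226 and 215 in the double mutant. The cdk8-1 libraries were below every WT library, and the double-mutant libraries were above every ref4-3 library. PGM3, a phosphoglucomutase of central carbon metabolism, showed steps instead. It had 124, 127 and 135 CPM in WT, 163, 166 and 162 in cdk8-1, 176, 180 and 176 in ref4-3 and 225, 224 and 239 in the double mutant, with no overlap between these genotypes. Its double-mutant difference was 0.02 above the sum of the single ones (log2).

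**Figure D2:**
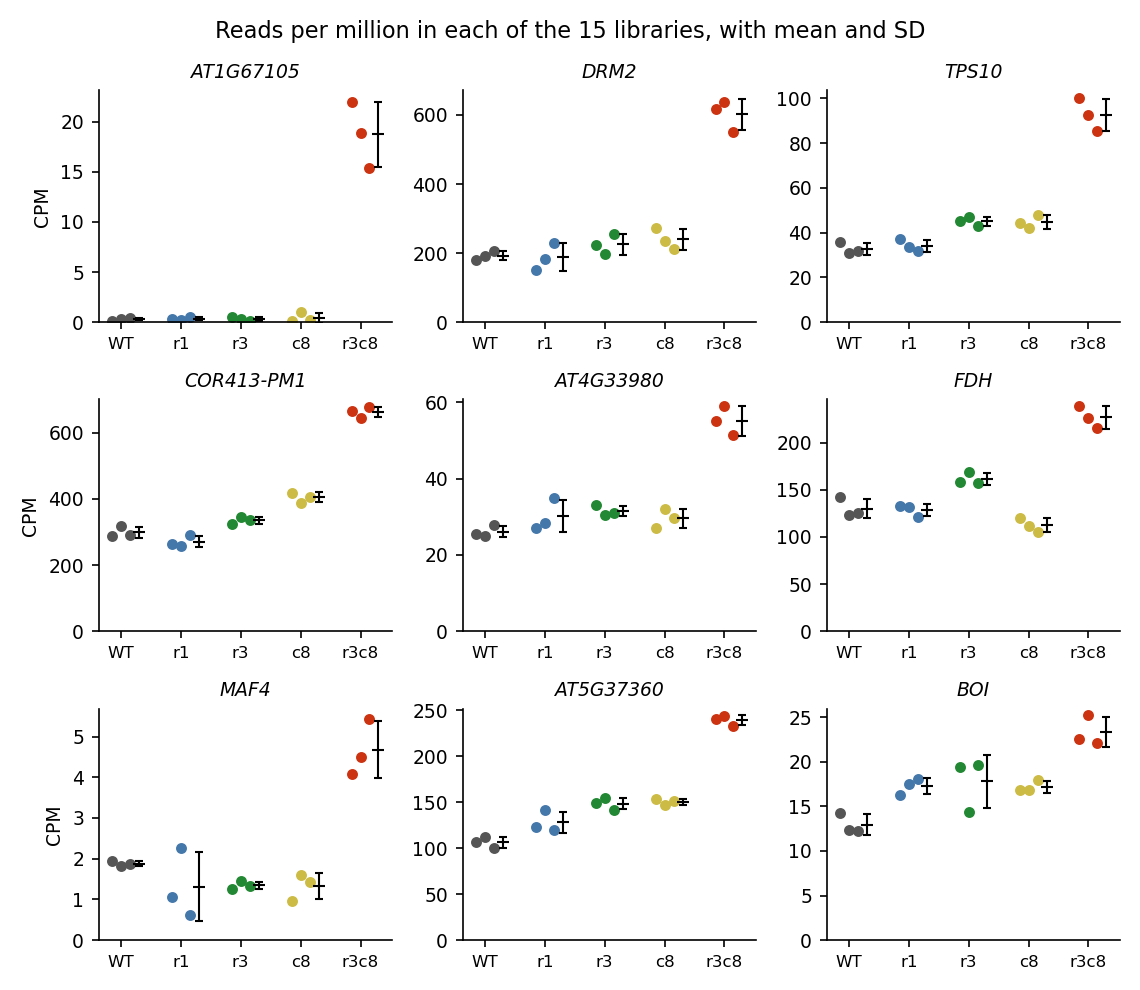
CPM (y axes, linear from 0) of 9 genes in each of the 15 libraries, by genotype: WT, ref4-1 (r1), ref4-3 (r3), cdk8-1 (c8) and ref4-3 cdk8-1 (r3c8); black bars are mean and SD over 3 libraries. AT1G67105 exceeds 1 CPM in the double mutant alone among these genotypes, whereas the single mutants of AT5G37360 and BOI already lie above WT.

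Cold-regulated families gave 3 genes. COR413-PM1, a plasma membrane protein of the cold-regulated 413 family, had more reads per 1000000 in the double mutant than any other of the 109. Its libraries had 288, 318 and 290 CPM in WT, 264, 258 and 290 in ref4-1, 325, 346 and 336 in ref4-3, 419, 388 and 407 in cdk8-1 and 667, 646 and 677 in the double mutant. WT, ref4-3, cdk8-1 and the double mutant did not overlap, and they stood in that order. AT4G33980, whose best Arabidopsis match in the annotation is cold regulated gene 27, had 25.0 to 27.7 CPM in WT, 27.1 to 32.1 in cdk8-1, 30.4 to 33.0 in ref4-3 and 51.3 to 59.0 in the double mutant. AT4G37220, a WCOR413 family gene, had 2 counts over the WT libraries and 52 over the double-mutant libraries, a ratio of 23.0 with a 95% interval of 6.06 to 195 (exact binomial, for counting error only). The rule used these counts, so the interval does not hold its stated coverage and nothing is read from its distance from equality.

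The classical cold and abscisic acid genes were read beside them. None of the 15 on that list was among the 109. Of its 14 tested genes, 13 were called higher in the double mutant than in WT, 12 in ref4-3 and 10 in cdk8-1 (edgeR), where 21.0, 20.3 and 8.06% of all genes were. RD29A, a reporter gene of drought and cold, was at 209, 711, 367 and 2035 CPM in WT, ref4-3, cdk8-1 and the double mutant, and KIN1, of the same response, at 5.40, 116, 21.8 and 672. Both were outside the 0.5 ceiling in each parent, whereas COR413-PM1 differed from WT by 0.17 in ref4-3 and 0.44 in cdk8-1.

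Transcription factors gave 16 genes. MAF4, a MADS-box gene of the FLC clade of flowering repressors, had 1.94, 1.82 and 1.86 CPM in WT, 1.05, 2.26 and 0.627 in ref4-1, 1.26, 1.45 and 1.32 in ref4-3, 0.966, 1.59 and 1.44 in cdk8-1 and 4.09, 4.51 and 5.44 in the double mutant. Both parents were below WT in every library and the double mutant was above all, which made MAF4 the 1 gene of the 109 with both parents at or below WT. It sits among close copies, so its counts are uncertain. Its relative MAF5 was at 1.88, 5.37, 1.15 and 17.0 CPM in WT, ref4-3, cdk8-1 and the double mutant, and was not chosen because the ref4-3 mean exceeded the ceiling. Its ref4-3 replicates 2 and 3 were at 1.45 and 4.61 CPM, and without replicate 1, the highest, the difference from WT fell from 1.15 to 0.49 (log2), under the ceiling. Beside MAF4, 19 of 22 listed flowering time genes were tested, and 9 were higher and 2 lower in the double mutant than in WT (edgeR), where 21.0% and 21.6% of all genes were. In ref4-3 7 were higher and 2 lower (20.3% and 19.6% of all genes), and in cdk8-1 1 was higher and 1 lower (8.06% and 11.8%).

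HSFA6A, a heat shock transcription factor, had no count in any WT or cdk8-1 library. It had 10 counts in ref4-1, 15 in ref4-3 and 69 in the double mutant, at least 20.4-fold higher than WT taken at a floor of 3 counts over the group. The rule used the WT and double-mutant counts, so this fold is a description. A list of 12 heat shock genes does not hold HSFA6A, and 9 of them were tested (edgeR). In the double mutant 0 were higher and 8 lower than in WT (21.0% and 21.6% of all genes). In cdk8-1 0 were higher and 8 lower (8.06% and 11.8%), and in ref4-3 1 was higher and 5 lower (20.3% and 19.6%). HSFA6A and ARD4 lie on the same strand of chromosome 5, 644 bases apart. WOX4, a homeobox gene of the vascular cambium, had 4.29 to 4.52 CPM in WT, 4.14 to 5.56 in cdk8-1, 5.52 to 7.07 in ref4-3, 5.12 to 7.68 in ref4-1 and 9.72 to 11.0 in the double mutant. DREB2B, of the family that binds the drought response element, had 5.18 to 5.83 CPM in WT, 5.06 to 5.87 in ref4-3, 6.53 to 7.69 in cdk8-1 and 10.2 to 11.9 in the double mutant. It shares 1086 bases with TBL32 on the opposite strand, which was at 11.6 CPM in both WT and the double mutant. HFR1, a bHLH factor of the shade response, was at 0.295, 0.390, 0.664 and 1.90 CPM in WT, ref4-3, cdk8-1 and the double mutant, and COL1, a CONSTANS-like gene, at 2.60, 3.15, 4.07 and 5.78. COL1 shares 1807 bases, its whole length, with AT5G15845 on the opposite strand, so their reads may not be fully separated. AT5G15845 was at 1.02, 1.97, 0.916 and 1.66 CPM in the same order.

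Hormone pathways gave 6 genes. GH3.5, which conjugates auxin to amino acids, had 7.53, 7.53 and 5.59 CPM in WT, 8.70, 7.20 and 9.51 in ref4-1, 7.96, 9.02 and 10.8 in ref4-3, 12.4, 10.1 and 7.94 in cdk8-1 and 17.4, 15.8 and 18.1 in the double mutant. Its single mutants overlapped each other. SAUR32, of the small auxin-up RNA family, had 16.4 to 16.8 CPM in WT, 19.3 to 23.1 in ref4-1, 20.5 to 23.7 in cdk8-1, 22.6 to 25.5 in ref4-3 and 40.8 to 42.3 in the double mutant. GH3.5 was the 1 gene of the 109 on a list of 17 auxin response genes. Beside it 15 were tested (edgeR). In the double mutant 2 were higher and 7 lower than in WT (21.0% and 21.6% of all genes). In ref4-3 0 were higher and 12 lower (20.3% and 19.6%), and in cdk8-1 7 were higher and 3 lower (8.06% and 11.8%). KAO2, an oxidase of gibberellin synthesis, was at 31.0, 38.5, 41.8 and 57.3 CPM in WT, ref4-3, cdk8-1 and the double mutant. GASA3, a gibberellin-regulated peptide gene, had 0 counts in WT and 44 in the double mutant, at least 13.0-fold higher by the same floor. IPT7, a cytokinin synthesis enzyme, had 0.158 to 0.324 CPM in WT and 0.969 to 1.72 in the double mutant.

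Lipids and cell wall gave 6 genes. FAR1, a fatty acid reductase of suberin synthesis, had 13.1, 11.5 and 9.31 CPM in WT, 13.6, 15.4 and 13.5 in ref4-3, 16.8, 10.7 and 12.2 in cdk8-1 and 32.0, 26.5 and 28.5 in the double mutant. It shares 1310 bases with a gene on the opposite strand. AT5G24155 and SQP1, oxidoreductase genes of which SQP1 is of the squalene epoxidase family, are neighbours 4177 bases apart. AT5G24155 was at 2.68 ± 0.370 CPM in WT and 6.77 ± 0.419 in the double mutant, and SQP1 at 28.8 ± 1.57 and 52.3 ± 1.25. XTH32, an enzyme that remodels wall xyloglucan, was at 26.6, 31.9, 37.5 and 55.3 CPM in WT, ref4-3, cdk8-1 and the double mutant.

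Oxidoreductases gave 9 genes. AT2G29300, a Rossmann-fold dehydrogenase family gene, had the next largest difference after AT1G67105 (1.96 log2), with 2.59, 1.58 and 2.27 CPM in WT, 3.27, 3.15 and 2.47 in ref4-3, 2.82, 3.89 and 2.79 in cdk8-1 and 11.2, 13.4 and 9.17 in the double mutant. CYP71B4, a cytochrome P450, was at 25.4 ± 3.73 CPM in WT, 25.2 ± 1.46 in ref4-3, 30.4 ± 2.35 in cdk8-1 and 55.8 ± 3.94 in the double mutant. AOR, an alkenal reductase, was at 70.2, 89.0, 93.6 and 126 CPM in the same order, and its difference was 0.09 above the sum of the single ones (log2).

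Channels and transporters gave 10 genes. MSL4, a mechanosensitive channel, had 1.90 to 2.02 CPM in WT, 1.41 to 1.62 in ref4-3, 2.17 to 2.79 in cdk8-1 and 4.46 to 6.19 in the double mutant. Every ref4-3 library was below every WT library for this gene. FRO4, a ferric reduction oxidase, had 1.74 to 2.27 CPM in WT, 0.845 to 1.69 in cdk8-1, 2.38 to 3.49 in ref4-3 and 4.70 to 6.21 in the double mutant. UMAMIT33, an amino acid transporter family gene, had 0 counts in WT, 8 in ref4-3, 4 in cdk8-1 and 60 in the double mutant, at least 17.7-fold above WT by the same floor. NIP5;1, a boron channel, was at 6.98, 9.44, 8.19 and 13.7 CPM in WT, ref4-3, cdk8-1 and the double mutant.

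Signalling and protein turnover gave 12 genes. AT3G16800, a protein phosphatase 2C, had 4.36 to 4.86 CPM in WT, 3.97 to 5.32 in cdk8-1, 4.76 to 6.69 in ref4-3 and 11.8 to 14.0 in the double mutant. CIPK7, a kinase that acts with calcium sensors, was at 53.3, 74.2, 66.9 and 94.8 CPM in WT, ref4-3, cdk8-1 and the double mutant, and CLPB3, a plastid ClpB chaperone, at 69.2, 95.6, 83.3 and 125. Their differences were 0.03 and 0.11 above the sum of the single ones (log2). AT3G24790, a protein kinase, had 1 count in WT and 63 in the double mutant, a ratio of 55.7 with a 95% interval of 9.65 to 2236 (exact binomial, counting error only). Here too the counts had chosen the gene, so nothing is read from the interval.

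The remaining 29 genes have other or unknown roles. AT1G73390, with a BRO1-like domain for endosomal targeting, had 20.2 to 21.8 CPM in WT, 26.6 to 29.9 in ref4-3, 28.9 to 29.1 in cdk8-1 and 54.5 to 63.1 in the double mutant. AT5G37360 had 100 to 112 CPM in WT, 142 to 154 in ref4-3, 147 to 153 in cdk8-1 and 233 to 244 in the double mutant, with both parents clear of WT. AT4, a transcript of the phosphate starvation response, was at 1.23, 1.51, 1.32 and 4.01 CPM in WT, ref4-3, cdk8-1 and the double mutant. TRANS11, AT2G12400 and AT3G14595 of this group, AT2G17650 of metabolism, AT2G04570 of lipids and AT2G43445 of signalling and protein turnover had double-mutant means 2.15 to 2.46 times WT.

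**Figure D3:**
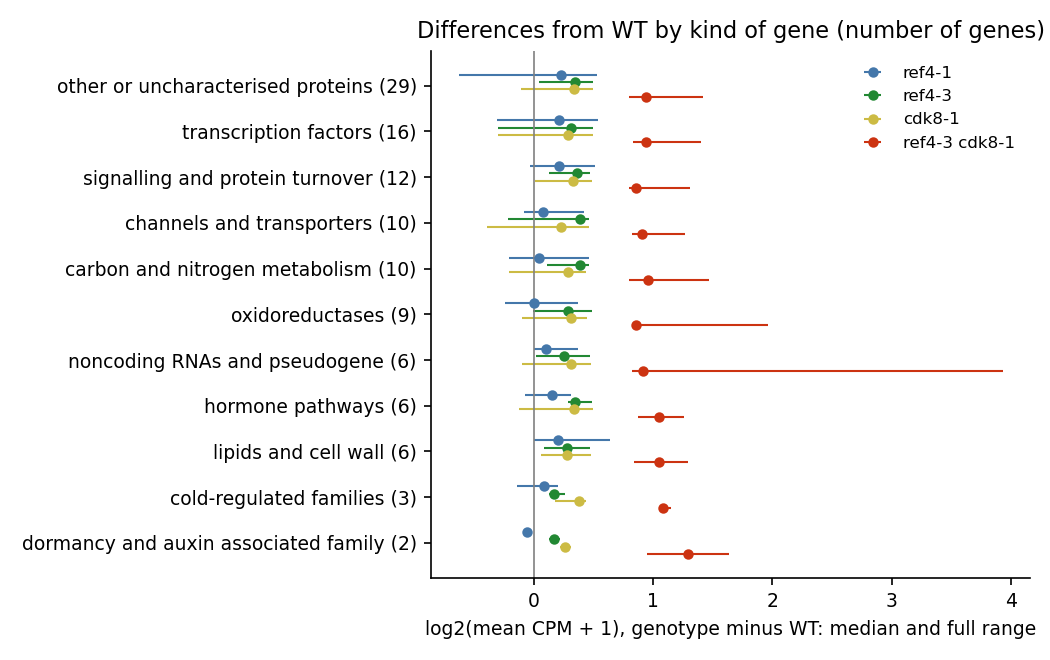
Median (point) and full range (line) of the difference from WT in log2(mean CPM + 1) (x axis) for each kind of gene (y axis, number of genes in brackets) in ref4-1, ref4-3, cdk8-1 and ref4-3 cdk8-1. Double-mutant medians run from 0.86 to 1.29, and the noncoding genes span the widest range because of AT1G67105 at 3.93.

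The sum of the single-mutant differences had a median of 0.60 (log2), and the double mutant exceeded that sum in 106 of 109 genes, with a median excess of 0.40 and a range of -0.12 to 3.76. The excess was 0.5 or more in 45 genes and under 0.25 in 35. A choice that sets a floor in the double mutant and a ceiling in its parents fixes this direction in part. In the edgeR quasi-likelihood fit, the interaction of ref4-3 with cdk8-1 was called positive (adjusted p under 0.05) in 29 of 104 genes. Of all genes 3.07% were, and nothing is read from the contrast because the rule used it. The count was 17 without ref4-3 cdk8-1 replicate 1 and 19 without cdk8-1 replicate 2. Among the called genes the largest interactions were those of AT1G67105 (5.36 ± 0.996, log2 and SE), MAF4 (2.35 ± 0.437), FRO4 (1.50 ± 0.362), MSL4 (1.49 ± 0.313) and AT2G29300 (1.42 ± 0.306). BOI (0.04 ± 0.147), AT5G18850 (0.10 ± 0.158) and CIPK7 (0.08 ± 0.0922) lay within 1 SE of the sum of their parents.

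**Figure D4:**
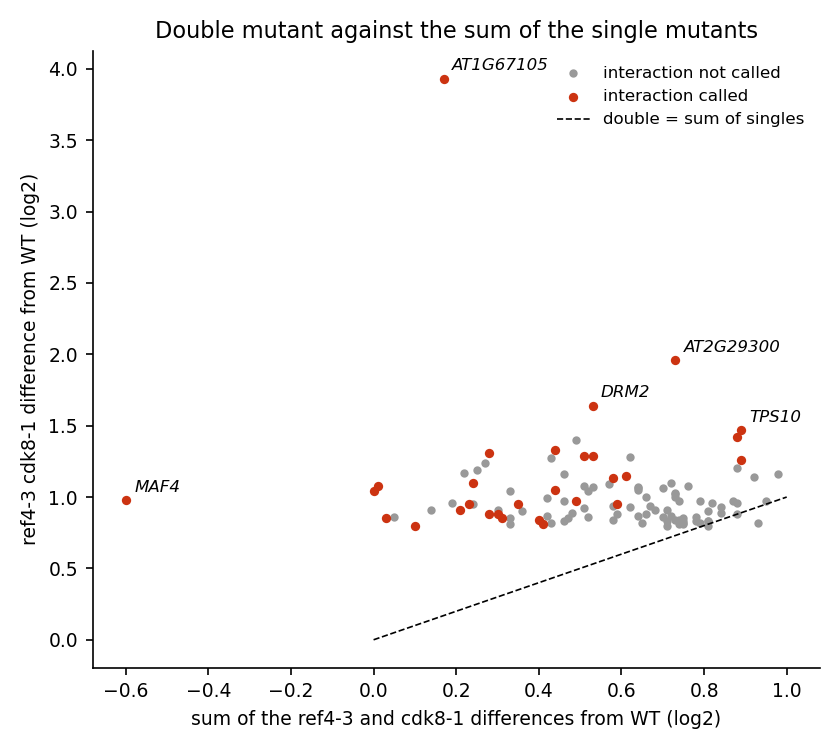
Difference of ref4-3 cdk8-1 from WT (y axis) against the sum of the ref4-3 and cdk8-1 differences (x axis), both in log2(mean CPM + 1), for the 109 genes; red points are the 29 with an interaction called by edgeR, and the dashed line marks equality. AT1G67105 stands apart at 3.93, and 106 genes lie above the line.

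Calls against single genotypes followed from the choice. The double mutant was called above WT in 104 of 104 tested genes (21.0% of all genes), above ref4-3 in 102 (15.9%) and above cdk8-1 in 91 (16.4%). Against WT, 22 genes were called higher in ref4-3 (20.3% of all genes) and 36 in cdk8-1 (8.06%). FDH was the 1 gene called lower in cdk8-1 (11.8% of all genes), a call lost without WT replicate 1, cdk8-1 replicate 2 or cdk8-1 replicate 3. None was called lower in ref4-3 by edgeR (19.6% of all genes) or by the DESeq2 Wald test, with 1 at an unadjusted p under 0.05 in edgeR and 1 called without WT replicate 3. The cdk8-1 count was 22 without cdk8-1 replicate 2. In all, 59 genes were called in neither parent (51.4% of all genes), 14 were called higher in both (2.06%) and 44 in at least 1 (26.3%). These contrasts entered the rule, and nothing is read from the shares.

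The ref4-1 libraries did not enter the rule, although the WT libraries they are compared with did. ref4-1 was above WT in 84 of the 109 genes, with a median of 0.15 (log2(mean CPM + 1)), against 68.9% and 0.10 over all genes tested. With TMM scaling 69 genes were above WT and the median was 0.07. The edgeR fit, which also uses TMM, had 66 of its 104 tested genes above WT with a median of 0.09. Over all genes in that fit the values were 52.7% and 0.02. In the edgeR fit 9 of 104 genes were called higher in ref4-1 than in WT, a share of 8.65% against 10.7% of all genes, and 2 were called lower (10.2% of all genes). At an unadjusted p under 0.05 the counts were 21 (17.2% of all genes) and 4 (15.8%). Without ref4-1 replicate 3, 84 genes were above WT, 9 were called higher and 2 lower. The higher count was 4 without WT replicate 1 and 1 without WT replicate 3. The lower count was 1 without any 1 of WT replicates 1, 2 and 3 and of ref4-1 replicates 1 and 2.

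AT1G30260, a galactosyltransferase family gene, had 14.9, 15.3 and 16.4 CPM in WT and 19.6, 23.4 and 25.3 in ref4-1, a difference of 0.45 ± 0.104 (log2 and SE, edgeR adjusted p = 0.00432). It was called whichever of the 6 libraries was left out. Its neighbour AT1G30250, 3263 bases away on the other strand, had 27.4, 28.5 and 29.8 CPM in WT and 25.6, 38.3 and 38.4 in ref4-1, and was not called (0.16 ± 0.117, edgeR adjusted p = 0.381). Without ref4-1 replicate 1 its difference was 0.34 and was called. AT5G24155 had 4.63, 5.30 and 4.28 CPM in ref4-1 against 3.08, 2.61 and 2.35 in WT (0.74 ± 0.198, edgeR adjusted p = 0.0117). Its neighbour SQP1 had 36.2, 36.4 and 38.1 CPM against 27.0, 29.5 and 29.9 (0.26 ± 0.0854, edgeR adjusted p = 0.0344). In AT1G30260, AT5G24155 and SQP1 no ref4-1 library overlapped a WT library. The call for AT5G24155 was lost without WT replicate 3 or ref4-1 replicate 2, and that for SQP1 without any 1 of the 6 libraries.

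PFA-DSP4, a protein tyrosine phosphatase, had 7.93, 7.68 and 8.46 CPM in ref4-1 against 5.59, 5.70 and 4.78 in WT (0.48 ± 0.131, edgeR adjusted p = 0.0133), a call lost without WT replicate 3. AT5G18850 had 16.4, 16.8 and 12.8 CPM against 9.80, 12.6 and 11.0 (0.39 ± 0.115, edgeR adjusted p = 0.0228). That call was lost without WT replicate 1 or 3, or without ref4-1 replicate 1 or 2. HSFA6A was called higher on 10 counts against 0 (edgeR adjusted p = 0.0303), a call kept only without ref4-1 replicate 1. AT2G02060, BOI and SAUR32 were the others called higher, with edgeR adjusted p = 0.0345, 0.0414 and 0.0486. The BOI call was lost without WT replicate 2 or 3, or without ref4-1 replicate 2 or 3. The SAUR32 call was lost without any 1 of the WT replicates, without ref4-1 replicate 2 and with DESeq2 size factors. Values of AT2G02060 in the refits are not given here.

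In the other direction, COR413-PM1 was lower in ref4-1 (-0.24 ± 0.0685, edgeR adjusted p = 0.0193), a call lost without WT replicate 2, ref4-1 replicate 1 or ref4-1 replicate 2. AT1G78476, an uncharacterised gene with few reads, had 0.351, 0.238 and 0.104 CPM in ref4-1 and 0.729, 0.238 and 1.30 in WT (-1.67 ± 0.567, edgeR adjusted p = 0.0441). Its groups overlapped, and the call was kept only without WT replicate 2. It shares 187 bases with MIR833a and 784 with AT1G78480, a gene on the opposite strand at 2.33 CPM in WT. For the 4 genes with the largest rises in the double mutant, the ref4-1 differences were 0.03 ± 0.742 for AT1G67105, -0.07 ± 0.246 for AT2G29300, -0.13 ± 0.125 for DRM2 and -0.03 ± 0.0849 for TPS10 (log2 and SE), and edgeR called none of them. All 4 changed sign in at least 1 refit without a library. DRM2 was at 0.01 without ref4-1 replicate 1, and at -0.31 and called lower without ref4-1 replicate 3.

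The alleles were then compared with each other, with ref4-3 held under its ceiling by the rule and ref4-1 free. In the edgeR fit 13 of 104 genes were called higher in ref4-3 than in ref4-1, against 4.52% of all genes. The ref4-3 libraries helped to choose the genes, so nothing is read from this count, its direction or the values that follow. None was called lower by edgeR (6.39% of all genes) or the DESeq2 Wald test, with 1 at an unadjusted p under 0.05 in edgeR, and 1 was called without ref4-1 replicate 2 or ref4-3 replicate 2. The higher count was 3 without ref4-3 replicate 2, 7 without ref4-1 replicate 3, and 8 without ref4-1 replicate 2 or ref4-3 replicate 3. AT1G73390 had 29.1, 29.9 and 26.6 CPM in ref4-3 and 20.1, 22.9 and 16.9 in ref4-1 (0.42 ± 0.0898, edgeR adjusted p = 0.00640). TPS10 differed by 0.32 ± 0.0828 (edgeR adjusted p = 0.0192) and PGM3 by 0.25 ± 0.0528 (edgeR adjusted p = 0.00680). For AT1G73390, TPS10 and PGM3 every ref4-3 library was above every ref4-1 library.

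**Figure D5:**
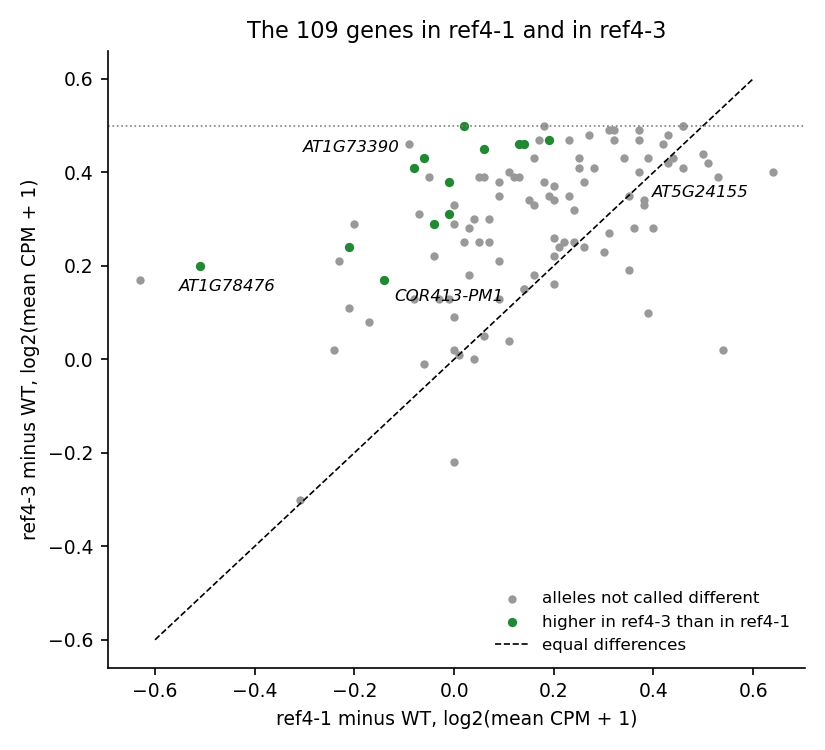
Difference from WT in log2(mean CPM + 1) in ref4-3 (y axis) against ref4-1 (x axis) for the 109 genes; the 13 green points were called higher in ref4-3 than in ref4-1 by edgeR, the dashed line marks equal differences and the dotted line the ceiling of 0.5. COR413-PM1 and AT1G78476 are below WT in ref4-1.

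Against ref4-1, the double mutant was called higher in 100 of 104 genes (17.2% of all genes), the others being AGL94, TCL1, UNE15 and ATSTE14B. Without ref4-1 replicate 3 the count was 99. Its lowest library was above every ref4-1 library in 106 of the 109 genes (25.8% of all genes tested), with HFR1, TCL1 and UNE15 as the exceptions. The double-mutant libraries chose the genes, so nothing is read from these shares.

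The 109 genes lay on all 5 chromosomes. Chromosome 2 held 22.0% of them and 15.1% of all tested genes, and chromosome 3 held 11.9% and 19.9%. The pairs AT1G30250 with AT1G30260, SQP1 with AT5G24155, and HSFA6A with ARD4 were next to each other in the annotation by start. UNE15 with MIR841a, 1324 bases apart, and AT5G23750 with DUF8, 2610 bases apart, were the other pairs within 5000 bases.

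Which genes met the rule depended on how counts were scaled. With TMM-scaled library sizes 112 genes did, 68 of them among the 109, and with DESeq2 size factors 115 did, 66 of them among the 109. Every gene lost fell under 0.8 in the double mutant, 41 and 43 in number. The 24 genes with the largest rises among those with at least 5 CPM met the rule under both scalings. In all 12 choices that left out 1 library 38 genes stayed, and 31 of the 109 stayed in these and under both scalings. These 31 include AT1G67105, DRM2, DYL1, COR413-PM1, AT4G33980, MAF4, WOX4, CYP71B4, FAR1 and AT3G16800.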

How the data were processed

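RNA was sequenced from 15 pools of rosettes with a stranded poly(A) kit, per the labels' protocols. The authors deposited raw read counts per gene for each library. Trimmomatic, TopHat2 2.1.0, HTSeq 0.6.1, edgeR and the build TAIR10 are named per the submitters' processing notes; they do not state the counting mode or strand setting. Reads listed as ambiguous or not unique are in no gene's count. Summary rows (no feature 0.667 to 1.05%, ambiguous 1.63 to 6.67% and not unique 2.37 to 6.62% of a library) were set aside.

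CPM used column totals. Genes above 1 CPM in at least 3 libraries were fitted together over all 5 genotypes with edgeR 4.0.16 (TMM, quasi-likelihood test, Benjamini-Hochberg adjustment over 18935 genes, R 4.3.3), after a test of the same script on simulated data. The median biological coefficient of variation was 6.73%. No libraries were duplicates: replicate pairs differed beyond sampling noise, with chi-square per degree of freedom of 2.67 to 14.7. Gene positions, names and upstream sequences came from RefSeq's TAIR10.1, in which 32822 of the 33601 gene IDs were found. The deposited counts carry no coordinates.

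The genes, the gene lists, and the grouping by role were chosen with earlier results of these data known, and the roles after the members were seen. Genes were named by rule: the 24 largest rises among those with at least 5 CPM in the double mutant, members of the listed pathways, up to 6 genes called in each direction in ref4-1 with the smallest p, the 3 genes on each side of the threshold, the 2 with the most reads, and adjacent pairs. Other genes were named for their role after their values were seen. Alternatives were other scalings, pseudocounts, thresholds and filters, DESeq2 1.42.0, a replicate block, only the 6 WT and ref4-1 libraries, and each library left out. Intervals and floors cover counting error only. They come from counts that the rule used, so they are descriptions.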

Additional observations from a re-analysis of the deposited data

Results flagged for a closer look

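Under the comparison of both ref4 alleles, 7 of the named genes differed between ref4-3 and ref4-1 by the test of the difference itself. All were higher in ref4-3, where 4.52% of all genes were called higher and 6.39% lower. Of the 104 chosen genes tested, 13 were called higher in ref4-3 than in ref4-1, and 3 without ref4-3 replicate 2. The log2 differences and SE were 0.33 ± 0.0915 (edgeR adjusted p = 0.0281) for AT1G08890, 0.32 ± 0.0828 (edgeR adjusted p = 0.0192) for TPS10 and 0.42 ± 0.0898 (edgeR adjusted p = 0.00640) for AT1G73390. They were 0.38 ± 0.101 (edgeR adjusted p = 0.0215) for AT2G12400, 0.24 ± 0.0684 (edgeR adjusted p = 0.0316) for COR413-PM1 and 0.25 ± 0.0706 (edgeR adjusted p = 0.0285) for FDH. AT1G78476, with few reads, differed by 1.94 ± 0.535 (edgeR adjusted p = 0.0269). The ref4-3 libraries entered the rule that chose the genes, and the ref4-1 libraries did not. The naming of genes did use the ref4-1 libraries. AT1G78476 was named only because it was called lower in ref4-1, and COR413-PM1 was named partly for such a call. Nothing is therefore read from the shared direction or these p-values.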

How the results depend on the processing

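A rise of at least 1.0 left 41 genes, and single mutants within 0.25 of WT left 15. Other pseudocounts gave 136 (0.5) and 90 (2), and leaving out 1 library gave 105 to 129. The mean of the medians in unused libraries was 0.92, and 1.00 with a pseudocount of 0.5. In ref4-1 the DESeq2 Wald test called 5 genes higher, and a fit of the 6 WT and ref4-1 libraries called 4 higher and 0 lower. In ref4-3 DESeq2 called 14 higher. The cause of these changes was not tested. The smaller fit had fewer libraries and also its own filter, scaling and estimate of the spread. With the replicate block, 1 gene was called lower in ref4-1, 11 were called higher, 30 had a positive interaction and 13 were higher in ref4-3 than in ref4-1. Over all genes and both directions, the block gave 4034 calls in ref4-1 against WT, where the main fit gave 3962. It gave 1039 for the interaction (971 in the main fit) and 2240 between the alleles (2064). For the DESeq2, 6-library and leave-one-out fits, counts over all genes are not given here. Changes in those counts can therefore not be set apart from changes over all genes. The replicate numbers did not pair the libraries: 4 of 30 same-number pairs correlated above 0.1.

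With 1 library left out, 1 to 9 genes were called higher and 1 to 2 lower in ref4-1. Chosen after seeing the data, the same refits put 80 to 84 genes above WT in ref4-1, and MAF5 at 0.49 to 1.53 above WT in ref4-3. In ref4-3 0 to 1 were called lower, and in cdk8-1 22 to 32 were called higher and 0 to 1 lower. The interaction was called in 17 to 31 genes. Between the alleles 3 to 11 genes were called higher and 0 to 1 lower in ref4-3. For the 10 named genes called in ref4-1 against WT, 26 of 60 such refits kept the call, 34 lost it and 0 changed sign. Of the 26 named genes not called, 7 changed sign in at least 1 refit, and 8 refits gave a call. Genes with few counts, such as GASA3 and HSFA6A, limit what depth can show.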
